A study of Xenopus laevis with 6 samples.

Results

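The genes described here encode the proteins of the mitochondrial ribosome, with symbols that begin with mrpl or mrps and a number, and the mitochondrial carriers of solute carrier family 25, with symbols that begin with slc25a and a number. Of 42638 genes in the count table of the whole embryos, 156 had such a symbol, 94 of them for the ribosome and 62 for carriers. A mean of 10 or more counts over the 6 samples was reached by 150 genes, of which 93 have ribosome symbols and 57 carrier symbols, and these 150 are the members. Both groups go by symbol. They thus include mrps36.S, whose protein is known from another complex, and the peroxisomal carrier slc25a17, as given below. Just above this limit stood mrps21.S with a mean of 10.33 counts and slc25a38.S with 10.50, and just below it slc25a42.S with 8.67 and mrpl42.L with 8. The other genes below the limit were slc25a45.S at 2.50, slc25a45.L at 2.00, slc25a48.L at 1.33 and slc25a4.S at 0.17. All 150 members passed the filter on low values that was used for testing.

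Mitochondria keep a small genome of their own, and the few proteins it encodes, nearly all of them subunits of the respiratory chain and of the ATP synthase, are made on mitochondrial ribosomes inside the organelle. The protein part of these ribosomes is encoded in the nucleus, and some of its proteins have counterparts in bacterial ribosomes while others occur only in mitochondria. Most of the carriers are proteins of the inner membrane. Some exchange ADP for ATP, and others let phosphate, carboxylic acids, amino acids, iron or cofactors pass between the organelle and the rest of the cell.

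The data were RNA sequencing of wild-type Xenopus laevis embryos at stage 35. Embryos were fertilized in 0.1X MMR (Marc's Modified Ringer's, a salt solution) and were either kept in it or moved at stage 9 to 0.75X MMR, which holds more salt, and all were kept at 14 degrees Celsius for 7 days. Each medium had 3 samples, and each sample was RNA of 10 pooled whole embryos, so that fewer cells of a type and less RNA per cell cannot be told apart. Xenopus laevis is an allotetraploid frog, and many of its genes exist as an L copy and an S copy on separate subgenomes. The study asked with these samples whether the saltier medium alone alters gene expression. The questions asked here of the ribosome and carrier genes are how much of the RNA they make up, whether it differs between the media, and how it is shared between L and S copies.

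The samples held 5024957 to 7045215 counts, and the medians were 6187769 counts for 0.1X MMR and 6008402 counts for 0.75X MMR. In these libraries 3 counts, the floor taken for detection (it covers counting error only), stood at 0.426 to 0.597 CPM. Markers of skeletal muscle, epidermis, nervous system, heart, germ plasm and the liver and pancreas region were present in all samples with sums that overlapped between the media. The sums of the 2 cement gland markers (1785 to 2137 CPM in 0.1X MMR and 638.3 to 969.9 CPM in 0.75X MMR), of the 3 blood markers (144.8 to 223.5 CPM and 229.0 to 236.7 CPM) and of the 2 markers of multiciliated cells (47.5 to 52.4 CPM and 52.5 to 66.1 CPM) did not overlap. In the edgeR test described below, 3 of 3 cement gland genes, 1 of 4 blood genes and 0 of 3 multiciliated cell genes had an unadjusted p under 0.05. Over all tested genes 4.39% had one, and the samples of the media did not overlap in 9.74%. The sums themselves were not tested. Of the 2 lens markers, 1 was found, at no more than 0.604 CPM in any sample.

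The members differed in how often their copies were kept. Of 74 names of ribosome genes, 20 had an L and an S entry in the table, or 27.0%. Of 40 carrier names with such a suffix, 21 had both, or 52.5%, and of all 14463 names with a suffix 7798 had both, or 53.9%. Most ribosome proteins were thus represented by a single copy, which was the L copy for 35 names and the S copy for 19, while 16 carriers had only an L copy and 3 only an S copy. The single copy was L for 64.8% of these ribosome names and 84.2% of these carrier names, beside 73.7% of all names with a single copy. A copy that carries another symbol was not looked for. The citrate carrier slc25a1 is an example, since slc25a1.L lies on chromosome 1L (166599469 to 166618806 in the RefSeq list for the genome version to which the authors aligned) and a gene listed as slc25a1-b on chromosome 1S (142332089 to 142361492).

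The gene neighbourhood of some members was shared as well. On chromosome 3L the gene mrps11.L (116131086 to 116167250) overlapped mrpl46.L (116167240 to 116170700) by 11 bases, and on chromosome 3S only 6 bases separated mrpl46.S (44238381 to 44244343) from mrps11.S (44244350 to 44259787). The sources used here do not say whether strand was used in counting. The overlap on 3L is far shorter than a read of 75 bases, so no read of full length lies within it. How reads that touch the overlap were assigned was not examined. On chromosome 8L the gene slc25a43.L was followed after 4157 bases by slc25a5.L (51378468 to 51381505).

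In the embryos, the 150 members took between 0.527% and 0.6% of all counts of a sample. The 93 ribosome members summed to 1605, 1590 and 1626 CPM in the 3 samples in 0.1X MMR and to 1591, 1690 and 1526 CPM in those in 0.75X MMR (1607 ± 17.9 and 1603 ± 82.9, mean ± SD, n = 3 each). The media overlapped, and the samples with the highest and the lowest sum were both from 0.75X MMR. The 57 carriers summed to 4427, 3891 and 4187 CPM in 0.1X MMR and to 3919, 4113 and 3662 CPM in 0.75X MMR (4168 ± 268 and 3898 ± 226, mean ± SD, n = 3 each), which also overlapped. As ribosome members had a mean of 1.74 to 47.3 CPM per gene and carriers one of 1.76 to 1690 CPM, the carriers were by far the more uneven group. These values are shares of the counts and grow with transcript length, which the tables used here do not give, so genes were not ranked by level.

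The carriers' share rested on a few genes for ATP supply. The ADP/ATP carrier slc25a5, known in mammals as the form of growing cells, took 49.3% to 53.0% of all carrier CPM with its L and S copies together, and the phosphate carrier slc25a3 took 16.2% to 18.5%. Together these 4 genes accounted for 67.3% to 70.5% of carrier CPM in each sample. The L copy of slc25a5 alone took 43.4%, 42.6% and 42.8% of carrier CPM in 0.1X MMR, beside 40.3%, 40.5% and 41.1% in 0.75X MMR, ranges that did not overlap, a value singled out after it was seen and not tested. Without slc25a5 and slc25a3 the other 53 carriers summed to 1277 ± 36.0 CPM in 0.1X MMR and 1252 ± 63.1 CPM in 0.75X MMR (SD, n = 3 each).

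Between the media, 0 of the 150 members passed an FDR of 0.05 in the quasi-likelihood test of edgeR (Benjamini-Hochberg adjustment over 28075 genes), where 0.0178% of all tested genes did. An unadjusted p under 0.05 was found for 7 members, 4 of them higher and 3 lower in 0.75X MMR, which is 7 of 150 beside 4.39% of all tested genes. By DESeq2, 0 members passed the FDR limit (0.0463% of all genes) and 3 had an unadjusted p under 0.05 (1.49% of all genes). By limma-voom 0 members passed it (0.0178% of all genes) and 8 had an unadjusted p under 0.05 (4.43%), and with 2 surrogate variables these numbers were 0 (0.057%) and 6 (4.99%). In 18 members, 7 higher and 11 lower in 0.75X MMR, the samples of the media did not overlap, beside 9.74% of all tested genes. For the 150 members together, neither share stood far from that of all genes. By group, the media did not overlap in 9 of 93 ribosome members, 5 higher and 4 lower in 0.75X MMR. They did not overlap in 9 of 57 carriers, 2 higher and 7 lower, a larger share than that of all genes, which was not tested.

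**Figure D1:**
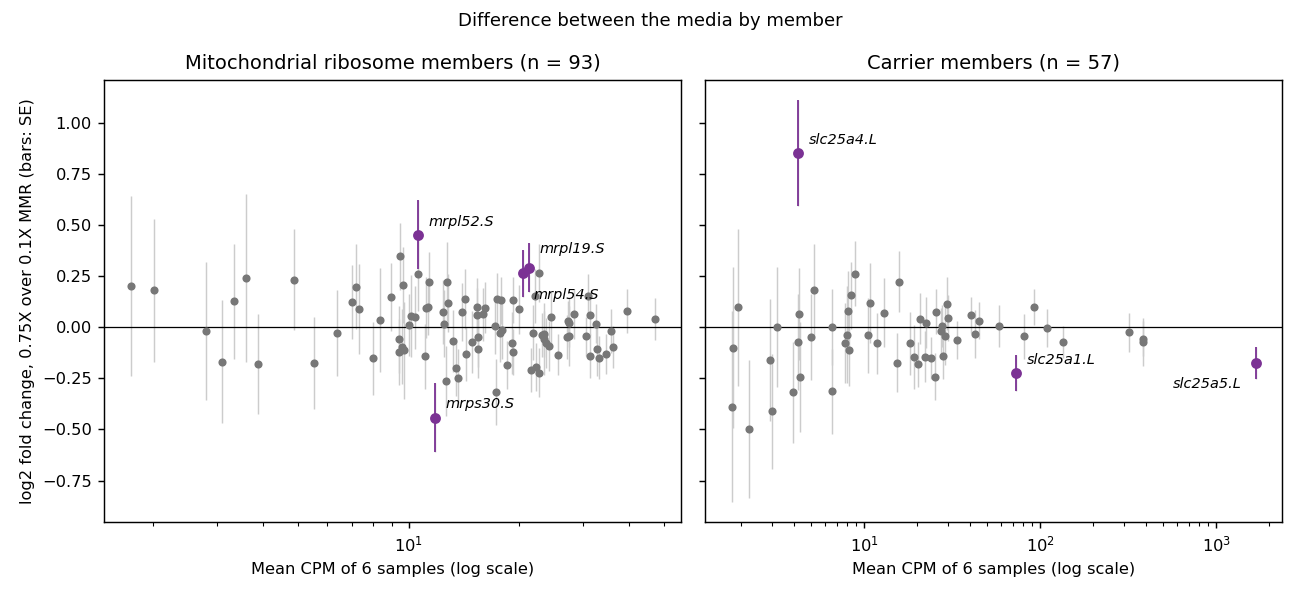
The log2 fold change of each member between 0.75X and 0.1X MMR (vertical axis, edgeR, bars show the standard error) is plotted against its mean CPM over 6 samples (horizontal axis, log scale), with the 93 ribosome members on the left and the 57 carriers on the right. Purple points are the 7 members with an unadjusted p under 0.05, of which slc25a4.L at 0.85 lies farthest from 0.

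The ribosome members had a median log2 fold change of 0.01, with 48 above 0 and 45 below, and values from -0.44 to 0.45. The carriers had a median of -0.04, with 21 above 0 and 36 below, and values from -0.50 to 0.85. The median of all tested genes was 0.00 when rounded. By limma-voom, the 95% confidence interval of the difference lay within a 2-fold change in either direction for 92 of the 93 ribosome members and 54 of the 57 carriers, and within a 1.5-fold change for 74 and 43 of them. Over all tested genes that reached a mean of 10 counts, 91.5% had an interval within a 2-fold and 67.9% within a 1.5-fold change.

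By subunit, the 58 members of the large subunit had a median log2 fold change of -0.02 and the 34 of the small subunit one of 0.03. The large subunit is counted here with mrps30 and mrps18a, whose proteins sit in the large subunit of the mammalian ribosome despite their names. The 33 large-subunit members with bacterial counterparts had a median of 0.02 and the 25 that occur only in mitochondria one of -0.02, and the corresponding medians in the small subunit were 0.01 (21 members) and 0.10 (13 members). The remaining member, mrps36.S, whose protein is known in mammals as a part of the oxoglutarate dehydrogenase complex, had 20.4, 19.2 and 19.5 CPM in 0.1X MMR and 16.1, 19.0 and 17.0 CPM in 0.75X MMR (log2 fold change -0.19, edgeR's adjusted p = 1.00 when rounded). Its samples did not overlap between the media.

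By edgeR, 4 of the 93 ribosome members had an unadjusted p under 0.05, beside 4.39% of all tested genes. By DESeq2 0 of them had one, beside 1.49% of all genes. The 4 found by edgeR were all S copies, as were 39 of the 93 members. The S copies as a whole had 18 members above and 21 below 0, and the L copies 30 above and 24 below. The first of the 4, mrpl52.S, encodes a mitochondria-specific protein of the large subunit and had 9.71, 8.62 and 8.45 CPM in 0.1X MMR and 10.6, 14.9 and 11.5 CPM in 0.75X MMR. All 3 samples in 0.75X MMR lay above all 3 in 0.1X MMR, and replicate 2 stood highest (log2 fold change 0.45 with a standard error of 0.17, and 1.00 when rounded as adjusted p by edgeR). Another such protein is encoded by mrpl54.S, which had 20.4, 17.4 and 18.1 CPM in 0.1X MMR and 22.5, 24.0 and 20.9 CPM in 0.75X MMR (log2 fold change 0.26, standard error 0.12). Its media did not overlap either, by a small margin. The gene mrpl19.S, whose protein has a bacterial counterpart, had 18.3, 17.9 and 21.5 CPM in 0.1X MMR and 21.4, 25.2 and 23.7 CPM in 0.75X MMR (log2 fold change 0.29, standard error 0.12), and its media overlapped by a single sample. In the opposite direction lay mrps30.S, with 15.3, 14.5 and 10.9 CPM in 0.1X MMR and 10.9, 10.7 and 8.67 CPM in 0.75X MMR (log2 fold change -0.44, standard error 0.17). Its replicate 3 in 0.1X MMR was as low as the samples of the other medium. With edgeR's adjusted p at 1.00 when rounded, these 3 did not pass the limit either. The L copies mrpl52.L and mrps30.L had log2 fold changes of 0.24 (standard error 0.41) and -0.05 (standard error 0.15), with overlapping media. With L and S counts added up, mrpl52 and mrps30 had an unadjusted p of 0.0581 and 0.114 by edgeR. By limma-voom with 2 surrogate variables, 3 ribosome members had an unadjusted p under 0.05, beside 4.99% of all tested genes. Of these, 0 were higher in 0.75X MMR. Of ribosome members with an unadjusted p over 0.05, those with the highest positive log2 fold changes were mrps6.S, a small-subunit protein with a bacterial counterpart, at 0.35 (standard error 0.16), and mrps22.L, a mitochondria-specific one, at 0.26 (standard error 0.14).

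**Figure D2:**
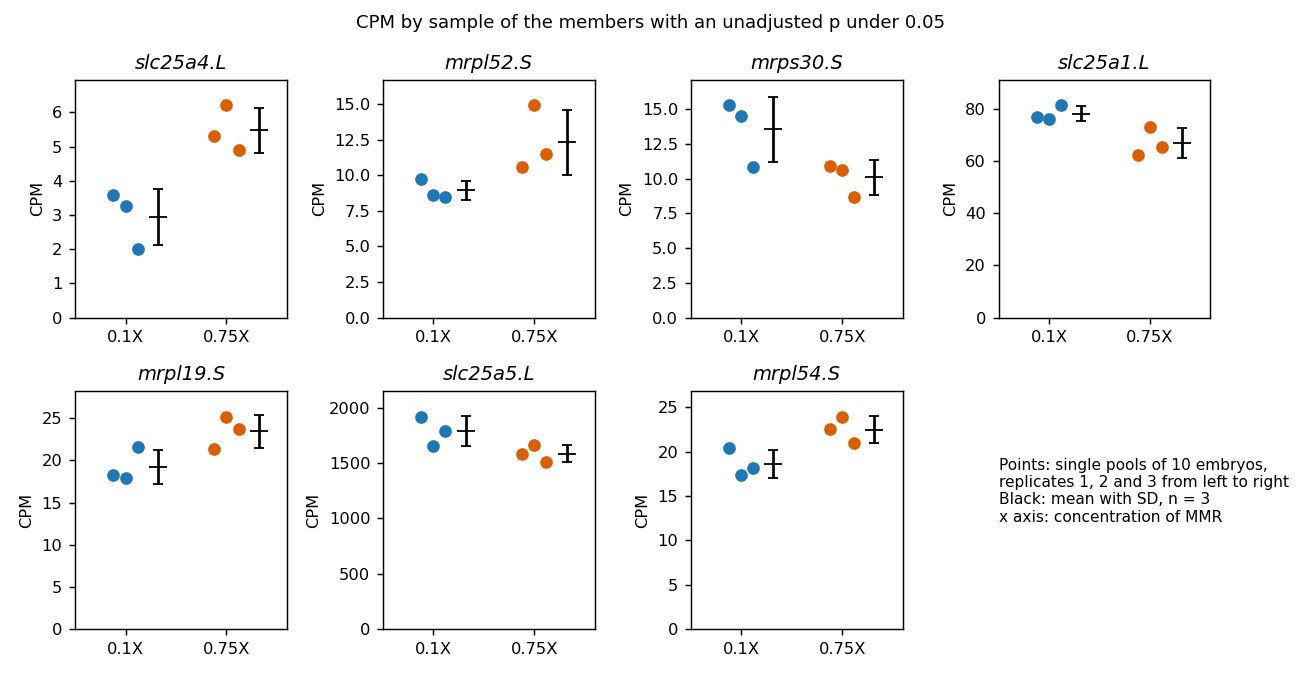
CPM (vertical axis, from 0) in each sample of the 7 members with an unadjusted p under 0.05, with 0.1X MMR in blue and 0.75X MMR in orange, and the mean with SD of 3 samples in black. The media do not overlap in slc25a4.L, mrpl52.S, slc25a1.L and mrpl54.S, and they overlap in mrps30.S, mrpl19.S and slc25a5.L.

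Among the carriers, slc25a4.L had the smallest p of all members. It encodes an ADP/ATP carrier that is known in mammals from heart and skeletal muscle, and it lies on chromosome 1L (46838092 to 46847148). In 0.1X MMR 25, 20 and 10 counts fell on it, and in 0.75X MMR 32, 35 and 30, which is 2.95 ± 0.82 and 5.47 ± 0.67 CPM (SD, n = 3 each). All samples in 0.75X MMR lay above those in 0.1X MMR, and the log2 fold change was 0.85 (standard error 0.26, unadjusted p = 0.00533 and adjusted p = 0.913 by edgeR). The summed skeletal muscle markers were 8256 to 9673 CPM in 0.1X MMR and 6697 to 10420 CPM in 0.75X MMR, with 0 of 8 genes at an unadjusted p under 0.05, and their part in this value was not tested. The S copy had 1 count in a single sample and 0 in the other 5. As slc25a4.L was at few counts in each sample, its difference rests on about 10 to 35 reads per sample.

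The much more abundant slc25a5.L had 1920, 1656 and 1793 CPM in 0.1X MMR and 1581, 1665 and 1507 CPM in 0.75X MMR. The media overlapped between replicate 2 of each, and the log2 fold change was -0.18 (standard error 0.08, with an adjusted p of 1.00 by edgeR when rounded). The S copy, slc25a5.S, had 403, 344 and 428 CPM and 397, 422 and 299.5 CPM in that order (log2 fold change -0.07, standard error 0.12). The copies of the phosphate carrier, slc25a3.L and slc25a3.S, had log2 fold changes of -0.06 (standard error 0.08) and -0.03 (standard error 0.09), and overlapping media. The last carrier with an unadjusted p under 0.05 was slc25a1.L, which exports citrate and had 76.8, 76.3 and 81.4 CPM in 0.1X MMR and 62.2, 73.2 and 65.3 CPM in 0.75X MMR. Its samples did not overlap, with a log2 fold change of -0.23 (standard error 0.09, adjusted p = 1.00 when rounded). In the edgeR fit with L and S counts added up, slc25a1-b on chromosome 1S stayed a name of its own. It had a log2 fold change of 0.04 there (standard error 0.12).

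By substrate, the 14 amino acid carriers had 11 members below 0 and a median log2 fold change of -0.06, and the 14 carriers of nucleotides, cofactors and thiols 9 below 0 and a median of -0.06, while 14137 of all 28075 tested genes were below 0. The 10 carriers of ADP/ATP and phosphate had a median of -0.04 with 7 below 0, and the 5 of dicarboxylates, citrate and keto acids one of 0.00 with 2 below 0. Both copies of the carnitine carrier slc25a20 (median 0.05) and of slc25a46 (median 0.09) were above 0. The carriers with the most negative values were all low in counts. They were slc25a22.S (a glutamate carrier) at -0.50 with a standard error of 0.34, slc25a16.L (coenzyme A) at -0.41 with 0.28, slc25a38.S (glycine) at -0.39 with 0.47 and slc25a27.L (similar to uncoupling proteins) at -0.32 with 0.25. Their standard errors were close to the differences themselves, and the samples overlapped in slc25a38.S and not in the other 3. The mitoferrins, which bring iron into mitochondria for heme and iron-sulfur clusters, had log2 fold changes of 0.06 (slc25a28.L), -0.15 (slc25a28.S), 0.22 (slc25a37.L) and -0.11 (slc25a37.S), all with overlapping media. The form best known from red blood cells of fish and mammals, slc25a37.L, had 14.4, 16.4 and 12.9 CPM in 0.1X MMR and 20.1, 16.7 and 14.6 CPM in 0.75X MMR, beside sums of the blood markers that were higher in 0.75X MMR, as given above. Their part in its value was not tested.

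The sign of the carriers' median log2 fold change depended on a single sample. In replicate 3 of 0.75X MMR, 44 of 57 carriers and 59 of 93 ribosome members lay below their own mean over the 6 samples. Above their own mean were 13 carriers and 34 ribosome members in that sample, beside 12472 of all 24556 genes of 10 or more counts. The median deviation there was -0.10 for carriers and -0.05 for ribosome members on the log2 scale, and 0.00 for all genes of 10 or more counts. Without this sample the median log2 fold change of the carriers was 0.02, with 32 above 0 and 25 below, and that of the ribosome members 0.05. The summed carrier CPM was still lower in 0.75X MMR without it, at a log2 ratio of -0.05 beside -0.10 with all samples. Ribosome members stood highest in replicate 2 of 0.75X MMR (median deviation 0.08) and carriers in replicate 1 of 0.1X MMR (0.06). The median log2 fold change of the ribosome members was -0.02 without replicate 2 of 0.75X MMR, beside 0.01 with all samples. By limma-voom with 2 surrogate variables it was -0.01. Samples thus differed from each other in both groups by about as much as or more than the media did.

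**Figure D3:**
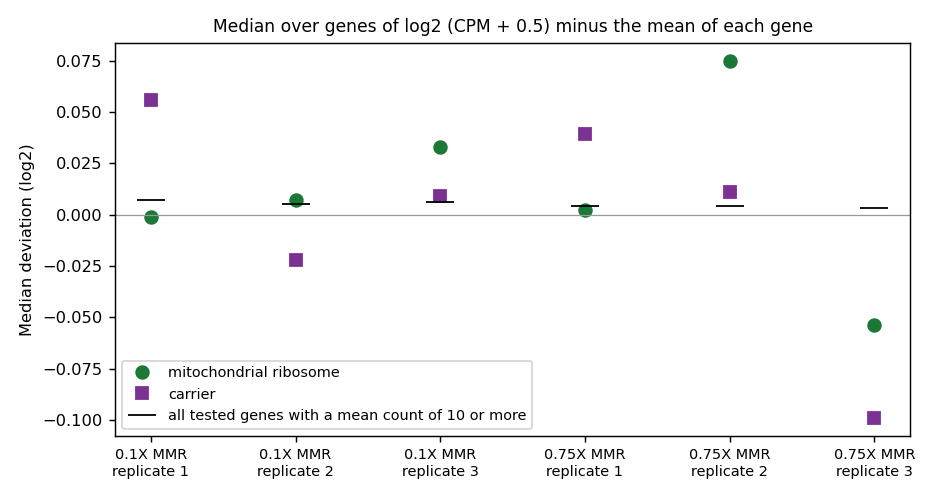
Median over genes of log2 (CPM + 0.5) minus the mean of each gene over the 6 samples (vertical axis), by sample, for the 93 ribosome members (green circles), the 57 carriers (purple squares) and all genes of 10 or more counts on average (black lines). Replicate 3 of 0.75X MMR is lowest in both groups, at -0.05 and -0.10, while the median of all genes stays near 0.

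Within a medium, the median coefficient of variation of a ribosome member over 3 samples was 10.7% in both media, and that of a carrier 9.51% in 0.1X MMR and 12.3% in 0.75X MMR. Counting error alone gives 10.4% for a ribosome member and 9.61% for a carrier of median count. A coefficient of variation from 3 samples is imprecise and tends to come out low, and the edgeR fit over all genes gave a common coefficient of variation of 9.53% beyond counting error.

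Other genes of mitochondrial protein synthesis and transport showed no member past the FDR limit either. The 33 tested genes listed under translation factors and ribosome assembly had 15 above 0 and 18 below (median log2 fold change -0.05). By edgeR 0 of them had an unadjusted p under 0.05, beside 4.39% of all tested genes. Of 17 genes for mitochondrial aminoacyl-tRNA synthetases, which load amino acids on tRNA, only sars2.L had one, with 6.85, 7.48 and 10.7 CPM in 0.1X MMR and 6.46, 5.50 and 5.89 CPM in 0.75X MMR (log2 fold change -0.46, unadjusted p = 0.0456, adjusted p = 1.00 when rounded). The 20 genes for transcription of mitochondrial DNA and its regulators had a median of -0.03. The 6 genes listed with the ribosome under other symbols, oxa1l.L included, had one of 0.00. The 26 listed with carriers and inner membrane transporters under other symbols, mtch2, timm9 and timm10 included, had one of -0.05 with 7 above 0 and 19 below. In these last 3 lists 0 genes had an unadjusted p under 0.05 by edgeR. By limma-voom with 2 surrogate variables, 2 of the 33 genes and 2 of the 20 had one, and 0 in the other lists. Over all tested genes 4.99% had one by that fit. Of 13 symbols looked for as messengers encoded by mitochondrial DNA, 0 were found among the counted genes, so these messengers were not analysed here.

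The L and S copies were compared within each sample, as the log2 ratio of the L count to the S count. A pair was taken where L and S together had a mean of 20 or more counts, which left 40 pairs, 20 for ribosome proteins and 20 for carriers, and both copies were members in 37 of them. Of the 40, 20 had unequal counts at an FDR under 0.05 (limma over 6906 pairs, Benjamini-Hochberg) and a ratio of 2-fold or more, beside 41.2% of all pairs. The L copy was higher in 9 of these and the S copy in 11, while over all pairs L was higher in 28.8% (1989 of 6906 pairs) and S in 854 of 6906 pairs. Among ribosome pairs 3 were called with L higher and 7 with S higher, and among carriers 6 and 4. The same copy was higher in 6 of 6 samples in 34 pairs, 19 times the L copy and 15 times the S copy. How often this occurred over all pairs was not counted. At an FDR under 0.05 and with no limit on size, the copies differed in 34 of 40 member pairs, beside 5847 of 6906 pairs in all. These are ratios of counts without regard to transcript length, so that a ratio reflects the lengths of the copies as well as their expression.

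**Figure D4:**
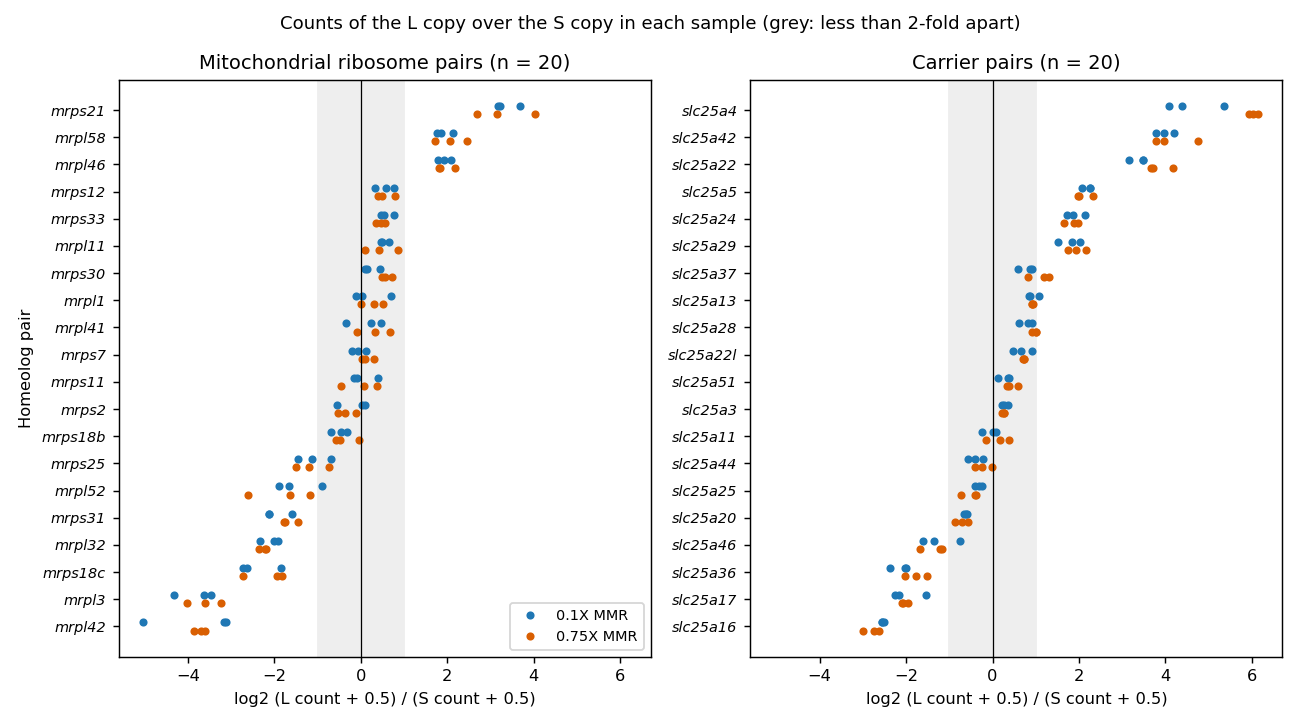
The log2 ratio of the L count to the S count, each with 0.5 added (horizontal axis), in each sample for 20 ribosome pairs (left) and 20 carrier pairs (right), with 0.1X MMR in blue and 0.75X MMR in orange. Ratios of less than 2-fold lie in the grey band, and pairs reach from mrpl42, with S far higher, to slc25a4, with L far higher and the S copy at 0 counts in 5 of 6 samples, so that its points depend on the 0.5 that was added.

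In the ribosome, the pairs in which the S copy stood out most were mrpl42 and mrpl3, with log2 ratios of -3.74 (standard error 0.22) and -3.71 (standard error 0.13). Both encode proteins of the large subunit. The L copy of mrpl42 was below the limit of 10 counts for members, and the ratio of this pair ran from -5.04 to -3.12 over the samples. The L copy of mrpl3 supplied 4.6%, 7.22% and 7.94% of the counts of the pair in 0.1X MMR, and in 0.75X MMR 9.36%, 5.58% and 7.33%, so that nearly all of the counts came from the S copy in every sample. In mrps18c and mrpl32 the ratios were -2.29 (standard error 0.16) and -2.17 (standard error 0.11). The opposite was seen for mrps21, a small-subunit protein with a bacterial counterpart, at 3.32 (standard error 0.17), with an S copy just above that limit. The L copy was also higher in mrpl58, which in mammals releases peptides from stalled ribosomes, at 2.00 (standard error 0.14), and in mrpl46 at 1.93 (standard error 0.12). The next highest, mrps12 of the decoding centre, had a ratio of 0.56 (standard error 0.10) and stayed below the 2-fold limit.

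Genes close to each other could differ in this balance. The pair mrps11, which lies next to mrpl46 on both subgenomes, had nearly equal copies at a log2 ratio of 0.02 (standard error 0.15), with 62, 31 and 36 counts of L and 47, 33 and 40 of S in 0.1X MMR and 39, 48 and 47 of L and 54, 37 and 45 of S in 0.75X MMR. The ratio of mrps11 lay between -0.46 and 0.40 and that of mrpl46 between 1.79 and 2.19, with no overlap over the 6 samples. The genes mrps7 and mrpl58, which lie 79945 bases apart on chromosome 9_10L and 192218 on 9_10S, had ratios of 0.05 (standard error 0.08) and 2.00. Both comparisons were picked with their values in view and were not tested.

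Among the carriers, L copies predominated in slc25a42, a coenzyme A carrier, at a log2 ratio of 4.07 (standard error 0.13), in slc25a22 at 3.61 (standard error 0.10) and in slc25a5 at 2.15 (standard error 0.04). The S copy of slc25a42 was below the limit for members. The L copy supplied 79.8% to 83.4% of the counts of slc25a5 in the 6 samples. Of the carrier pairs, only slc25a4 was more uneven than slc25a42, with the S copy of slc25a4 all but absent. The S copy was higher in slc25a16 at -2.67 (standard error 0.10), in the peroxisomal carrier slc25a17 at -2.01 (standard error 0.14), in the pyrimidine nucleotide carrier slc25a36 at -1.95 (standard error 0.11) and in slc25a46, an outer membrane protein of mitochondrial fusion and fission, at -1.30 (standard error 0.15). The phosphate carrier slc25a3, with many counts in each copy, was close to balance at 0.26 (standard error 0.03), and the L copy supplied 53.6% to 56.0% of its counts.

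The medium was not associated with a detectable shift between copies. By the same limma fit, 0 of 40 pairs had an L to S ratio that differed between the media at an FDR under 0.05, as had 0 of 6906 pairs in all (0%), and 2 of 40 had an unadjusted p under 0.05 beside 4.97% of all pairs. These were slc25a4, where the S copy was at or near 0, and slc25a22, in which the L copy supplied 92.0%, 92.0% and 90.2% of the counts in 0.1X MMR, beside 93.2%, 95% and 93.0% in 0.75X MMR (difference of the log2 ratio 0.48, unadjusted p = 0.0382, adjusted p = 0.968). Its S copy had between 7.29 and 18.1 counts per sample.

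Some reads could not be given to a single gene. RSEM gives a fraction of a read where it fits more than 1 gene, and fractions occurred in at least 1 sample for 46 of the 77 members with both copies in the table, and for 9 of the 73 members with a single copy. The shares were 59.7% and 12.3%, beside 59.9% of all tested genes. In 38 of the 41 pairs, L and S summed to a whole number in every sample within 0.015 counts, so that any read they shared with another gene was shared between those copies. The other 31 members with both copies had whole counts throughout. With L and S counts added up before the test, 0 of 113 names passed the FDR limit by edgeR (0.00942% of all names) and 4 had an unadjusted p under 0.05 (4.26% of all names), with the smallest adjusted p at 0.952 for slc25a4.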

How the data were processed

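For each medium, 3 pools of embryos gave total RNA, from which ribosomal RNA was removed, and stranded libraries were read from 1 end. The authors trimmed reads with fastp, aligned them with STAR to genome version 10.1 and estimated gene expression with RSEM, and the deposited values are expected counts that were not normalized, of which 42.5% of those above 0 were not whole. A second deposited table holds log2 CPM that the authors adjusted for surrogate variables. It lists 148 of the 150 members and was used only for an alternative. All columns were assigned to a sample by their names (0 columns were left over). Tool versions and the use of strand in counting are not given in the sources used here.

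Genes with over 0.6 CPM in at least 3 samples were kept, counts were rounded, and TMM-scaled libraries were tested in edgeR 4.0.16 by the quasi-likelihood test, with a single term for the medium and Benjamini-Hochberg adjustment over all genes. CPM values are on the TMM-scaled total. L to S ratios were fitted in limma 3.58.1 with a trend on the mean count. Alternatives used DESeq2 1.42.0, sva 3.50.0, other scalings and filters, a replicate block and samples left out, with R 4.3.3 and Python 3.11.15. The fits were tested on simulated data. The simulated differences between media were larger than any found for members in the main fits, so these tests do not cover changes of the size found here.

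The study's methods state, for its experiments in general, that biological replicates came from separate batches. The labels do not name the batch of a pool. The p-values for the media set the difference between the media against the spread between these pools within a medium. Members, gene lists and alternatives were chosen with earlier results of these data known. Named are members with an unadjusted p under 0.05, the 5 largest log2 fold changes in each direction, the 4 most L-rich and S-rich pairs per group, and the ADP/ATP, phosphate and iron carriers. Ranking by level per length and a search for promoter motifs had been planned and were not done, as no transcript lengths or sequences were at hand. Levels of L and S were therefore compared as counts. Gene positions came from a RefSeq gene list (genome 10.1), in which all 150 members were found.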

Additional observations from a re-analysis of the deposited data

How the results depend on the processing

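The number of members past the FDR limit stayed at 0 with DESeq2, RLE size factors, no filter on low counts, limma-voom with and without surrogate variables, L and S added up and each sample left out, and the smallest adjusted p of a member over these alternatives lay between 0.555 and 1.00. With 1 sample left out, 3 to 8 members had an unadjusted p under 0.05, the median log2 fold change was -0.09 to 0.02 for carriers and -0.02 to 0.05 for ribosome members, the log2 ratio of summed CPM was -0.14 to -0.05 for carriers and -0.04 to 0.03 for ribosome members, and 20 to 21 pairs had unequal L and S counts. With a mean of 100 or more for L plus S, 12 of 29 pairs were unequal in place of 20 of 40. Over all pairs 1987 of 5249 were, in place of 2843 of 6906. In the deposited adjusted values the medians were -0.04 for carriers and 0.00 for ribosome members. Single members were followed where they were named for their p, their log2 fold change or as ADP/ATP, phosphate or iron carriers. Members named only through a pair were not followed in this way. Of the 20 that were, 4 changed sign when a sample was left out, slc25a3.L (-0.117 to 0.0219), slc25a3.S (-0.0823 to 0.0834), slc25a5.S (-0.169 to 0.0697) and slc25a38.S (-0.73 to 0.17). None of the 20 was called in any alternative. Over all genes, the number past the FDR limit was 5 by edgeR, 13 by DESeq2, 34 without a filter, 16 with surrogate variables and 2 with L and S added up. The labels do not say whether same-numbered samples of the media belong together. The deviations of same-numbered samples correlated at -0.02, -0.03 and -0.10, and those of differently numbered samples at -0.04 to 0.07. Such values cannot show whether samples share a batch. With a replicate block, 0 members passed, 2 of all genes did, 6 members had an unadjusted p under 0.05, and 0 of 40 pairs differed between the media in their L to S ratio. Low depth limits members under about 20 counts, whose standard errors reached 0.47.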
